A study of Homo sapiens with 6 samples.

Results

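The genes described here drive cells from G1 into S phase: the D-type cyclins CCND1 and CCND3, the E-type cyclins CCNE1 and CCNE2, the kinases CDK2, CDK4 and CDK6, the phosphatase CDC25A and the F-box protein SKP2. They were taken by name from the study's table of expression values, and all 9 were found among its 28495 genes. The cells were NCI-H1299, which the labels give as lung adenocarcinoma, a long-established line. By the labels, complement factor B (CFB), the protease of the alternative complement pathway, was silenced in the sh-CFB group. The sh-NC group is its control, and each group has 3 libraries. The sample titles name short hairpins whereas the column names are of the kind used for siRNA, so the form of the reagent is not settled here. No treatment or time point is labelled, and whether replicates came from separate cultures is not labelled; a p-value here therefore reflects spread among samples that may be technical. In such bulk RNA a smaller share of cells in one cycle phase and less RNA per cell cannot be told apart.

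Growth signals raise D-type cyclins, which bind CDK4 or CDK6 and begin the phosphorylation of the retinoblastoma protein RB. RB then lets go of E2F transcription factors, which switch on cyclin E, CDC25A and the genes of DNA replication. Cyclin E with CDK2 completes the phosphorylation of RB; CDC25A removes the inhibitory phosphates from CDK2, and SKP2 marks the CDK inhibitor p27 for destruction. In lung tumours this route is often altered, among other ways by extra copies of CCND1 or CCNE1 or by loss of the CDK4 inhibitor encoded by CDKN2A.

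Libraries rested on 26.2 to 40.0 M reads (M, 1e6). CFB itself gave 0, 0 and 2 reads in sh-CFB, against 1, 6 and 5 for the controls, and the groups overlapped (two-sided exact permutation p = 0.2). These reads are too few to check the silencing, by library or by group. The words silenced and after silencing below refer to the sh-CFB label. The line's keratins KRT8 and KRT18 and vimentin were abundant, with summed FPKM of 589.6 to 693.2 in sh-CFB and 551.0 to 699.8 in sh-NC, while the lung lineage markers NKX2-1, SFTPB, SFTPC and NAPSA summed to at most 0.679 FPKM in any library. The 3 immune markers measured summed to at most 0.0758 FPKM; the fibroblast and endothelial lists stayed at or below 0.282 and 0.140 FPKM. FPKM counts fragments per kilobase of gene and per 1e6 assigned fragments, so levels of genes can be compared as far as the gene length behind each value is right, which for SKP2 is in doubt. Libraries also differed in how their values followed the GC content of genes: the Spearman correlation across genes, which are not replicates, between a library's deviation from the gene mean and GC content was 0.60, -0.10 and -0.16 for sh-CFB replicates 1, 2 and 3, against -0.55, -0.25 and 0.23 for the sh-NC replicates.

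Promoter sequences are shown for members on both sides of the test used below, as the 250 bases before a RefSeq transcription start on GRCh38.p14. RefSeq entries were matched by symbol for 6 of the 9 members; CCND1, CCNE2 and CDK2 were not matched. In CDC25A, on the reverse strand of chromosome 3, capitals mark the E2F motif (TTTGGCGC) and CCAAT boxes, read here on the opposite strand as ATTGG. CCND3 has 3 listed starts, all on the reverse strand of chromosome 6, of which the second is printed with its CCAAT box in capitals. The window of the first start holds 0 CCAAT boxes and 5 GC boxes, and that of the third holds 1 CCAAT box. The values do not tell which start was used. In CDK4, on the reverse strand of chromosome 12, capitals mark E-boxes, and in CCNE1, on the forward strand of chromosome 19, they mark GC boxes (read on the opposite strand as CCGCCC). GC boxes of the other printed windows are left in lower case.
CDC25A chr3:48188418-48188667: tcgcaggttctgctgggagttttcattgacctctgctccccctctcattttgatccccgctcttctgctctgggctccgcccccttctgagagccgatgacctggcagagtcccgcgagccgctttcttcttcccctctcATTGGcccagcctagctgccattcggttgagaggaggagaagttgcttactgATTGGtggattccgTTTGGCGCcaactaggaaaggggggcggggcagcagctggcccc
CCND3 chr6:41941809-41942058: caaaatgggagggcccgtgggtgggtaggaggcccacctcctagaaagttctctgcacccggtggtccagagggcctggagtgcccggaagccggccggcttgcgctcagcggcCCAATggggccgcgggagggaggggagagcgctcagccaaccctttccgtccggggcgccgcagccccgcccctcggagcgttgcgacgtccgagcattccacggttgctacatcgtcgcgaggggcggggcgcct
CDK4 chr12:57752311-57752560: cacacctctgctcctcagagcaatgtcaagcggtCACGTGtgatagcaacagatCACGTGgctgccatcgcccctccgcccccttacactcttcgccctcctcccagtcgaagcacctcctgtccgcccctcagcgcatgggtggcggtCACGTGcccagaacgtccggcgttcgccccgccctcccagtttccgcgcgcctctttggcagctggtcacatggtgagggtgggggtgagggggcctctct
CCNE1 chr19:29811741-29811990: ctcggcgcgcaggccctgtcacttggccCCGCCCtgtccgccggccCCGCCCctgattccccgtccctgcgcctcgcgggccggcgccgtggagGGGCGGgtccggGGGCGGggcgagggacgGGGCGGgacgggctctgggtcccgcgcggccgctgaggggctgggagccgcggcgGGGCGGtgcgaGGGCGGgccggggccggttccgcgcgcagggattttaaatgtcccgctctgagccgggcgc

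Both strands were searched for E2F (TTTCCCGC, TTTCGCGC, TTTGCCGC or TTTGGCGC), the CCAAT box (CCAAT), the E-box (CACGTG), the GC box (GGGCGG), AP-1 (TGACTCA) and CRE (TGACGTCA); none of these motifs contains another. The E2F motif occurs in 2.79% of 35116 RefSeq windows of this length and, among the members, in CDC25A, where its first base lies 44 bases before the start. The CCAAT box occurs in 32.0% of windows; CDC25A holds 2, at 110 and 58 bases before the start. CDK4 holds 3 E-boxes, a motif found in 6.34% of windows and the sequence to which MYC is known to bind. GC boxes, found in 42.6% of windows, number 7 in CCNE1. AP-1, the motif of FOS and JUN dimers, occurs in 4.20% of windows and CRE in 1.65%, and neither was matched in any of the 9 windows of the 6 members. These matches describe letters in a window and were not measured as binding.

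CDC25A, CDK2 and CCND3 fell in sh-CFB, while CDK4, CDK6 and CCND1 did not pass the test and CCNE1 and SKP2 were lower in every sh-CFB library without passing it. Tests used limma on log2(FPKM + 0.5); 12466 genes averaged 0.5 FPKM or more and were tested, with Benjamini-Hochberg adjustment over all of them at 0.05; fold changes on this scale understate changes of low genes. Of the 8 members tested 3 fell, 0 rose and 5 did not pass; at an unadjusted p under 0.05, 5 were lower and 0 higher, or 3 and 0 under either median-of-ratios scaling or the GC and length correction. Over all tested genes 5.71% were called lower and 1.74% higher, and 18.6% were lower and 7.28% higher at the unadjusted threshold. Groups did not overlap for 5 of the 8, all lower in sh-CFB, where 23.6% of all tested genes were lower without overlap. After the GC and length correction CCNE1 and SKP2 overlapped and 3 members were lower without overlap, beside 17.9% of all tested genes. The members' median log2 fold change was -0.46, beside -0.15 over all tested genes. CCNE2 lay under the filter.

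**Figure D1:**
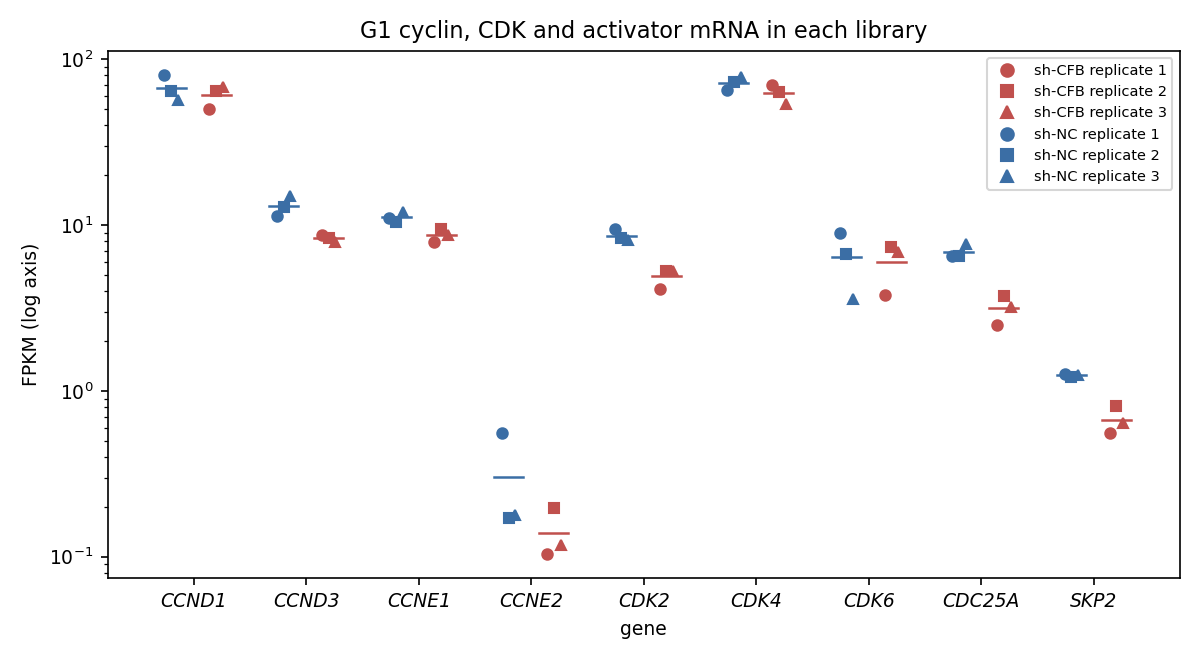
FPKM (log axis) of the 9 genes in each of the 6 libraries; points are libraries, short lines group means over 3 libraries. sh-CFB points lie below all sh-NC points for CDC25A, CDK2, CCND3, CCNE1 and SKP2, and the groups overlap for CCND1, CDK4, CDK6 and CCNE2.

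CDK4 and CCND1 had the highest levels in both groups, without overlap with the others. In sh-NC, CDK4 (72.1 ± 6.75 FPKM) and CCND1 (67.5 ± 12.1; SD, n = 3 each) overlapped, and CCND3 (13.1 ± 1.84), overlapping with CCNE1 (11.1 ± 0.713), came next. CDK2 (8.65 ± 0.734) lay above CDC25A (6.88 ± 0.663), which overlapped with CDK6 (6.39 ± 2.7; SD, n = 3 each), a gene whose range also reached into that of CDK2, and SKP2 (1.24 ± 0.0279) and CCNE2 (0.303 ± 0.222) closed the order. In sh-CFB the top pair was the same, CCNE1 (8.70 ± 0.821 FPKM) overlapped with CCND3 (8.32 ± 0.366), and CDK6 (5.98 ± 1.93) overlapped with CDK2 (4.91 ± 0.665; SD, n = 3 each), followed without overlap by CDC25A, SKP2 and CCNE2. The place of SKP2 holds for the deposited values; at its annotated length it overlapped with CDC25A in sh-CFB and with CDK6 in sh-NC.

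Of the D-type cyclins, CCND3 fell and the more abundant CCND1 did not pass. CCND3 (ENSG00000112576) lies on the reverse strand of chromosome 6 from 41934933 to 42050357. The sh-CFB libraries, replicates 1 to 3 in this order here and below, gave 8.67, 8.34 and 7.94 FPKM, against 11.4, 12.9 and 15.0 for the controls. The sh-CFB libraries lay close together, and each was below the lowest control. The log2 fold change was -0.62 (SE 0.13, adjusted p = 0.0313 with limma), a mean 36.5% lower. The call was the least stable of the 3. Among 11 other settings without a replicate block 7 kept it (adjusted p from 0.0201 to 0.266), the exceptions being no filter, quantile normalization and both settings with median-of-ratios factors, and among the 6 fits with 1 library left out it held without sh-NC replicate 1 (adjusted p = 0.0479) but in no other (0.0521 to 0.144).

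CCND1 (ENSG00000110092), on the forward strand of chromosome 11 from 69641087 to 69654474, encodes the D-type cyclin that many growth signals act on. Silenced libraries had 50.3, 64.1 and 68.1 FPKM, controls 80.7, 64.7 and 57.0. The groups overlapped, with the lowest value in sh-CFB replicate 1 and the highest in sh-NC replicate 1. Its log2 difference of -0.15 (95% interval -0.52 to 0.23, adjusted p = 0.616) equalled that of the median tested gene, and it turned to 0.11 after correction for GC content and length and to 0.06 with median-of-ratios factors. CCND2, the remaining D-type cyclin, had 2, 4 and 10 reads after silencing, against 48, 15 and 8 for the controls, at most 0.152 FPKM. CCND1 made up 85.3%, 88.5% and 89.5% of the summed FPKM of D-type cyclins after silencing, against 87.5%, 83.4% and 79.1% for the controls.

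The partner kinases of the D-type cyclins did not pass. CDK4 (ENSG00000135446), on the reverse strand of chromosome 12 from 57747727 to 57756013, gave 69.6, 63.9 and 53.9 FPKM after silencing, against 65.0, 72.8 and 78.4 for the controls. sh-CFB replicate 1 stood above sh-NC replicate 1, so the groups overlapped. Its log2 difference was -0.21 (95% interval -0.49 to 0.08, adjusted p = 0.331), and 0.0036 with voom and median-of-ratios factors.

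CDK6 (ENSG00000105810), on the reverse strand of chromosome 7 from 92604921 to 92836594, varied more within groups than between them. In the controls it stood at 8.94, 6.68 and 3.56 FPKM, in the silenced libraries at 3.78, 7.33 and 6.84. The low libraries were sh-CFB replicate 1 and sh-NC replicate 3, those whose deviations rose with GC content (Spearman 0.60 and 0.23), and the high one was sh-NC replicate 1 (-0.55); the GC content of CDK6 was 39.5%, the lowest of the tested members. The log2 difference was -0.05 (adjusted p = 0.939 with limma). Its wide 95% interval ran from -0.85 to 0.74, so a change of either sign within those bounds could not be told from none. After the GC and length correction the values were 5.52, 6.92 and 6.30 FPKM after silencing, against 6.47, 6.06 and 4.38 for the controls, with a difference of 0.15 (95% interval -0.20 to 0.50). The part of the GC trend in these values was not tested beyond that correction.

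**Figure D2:**
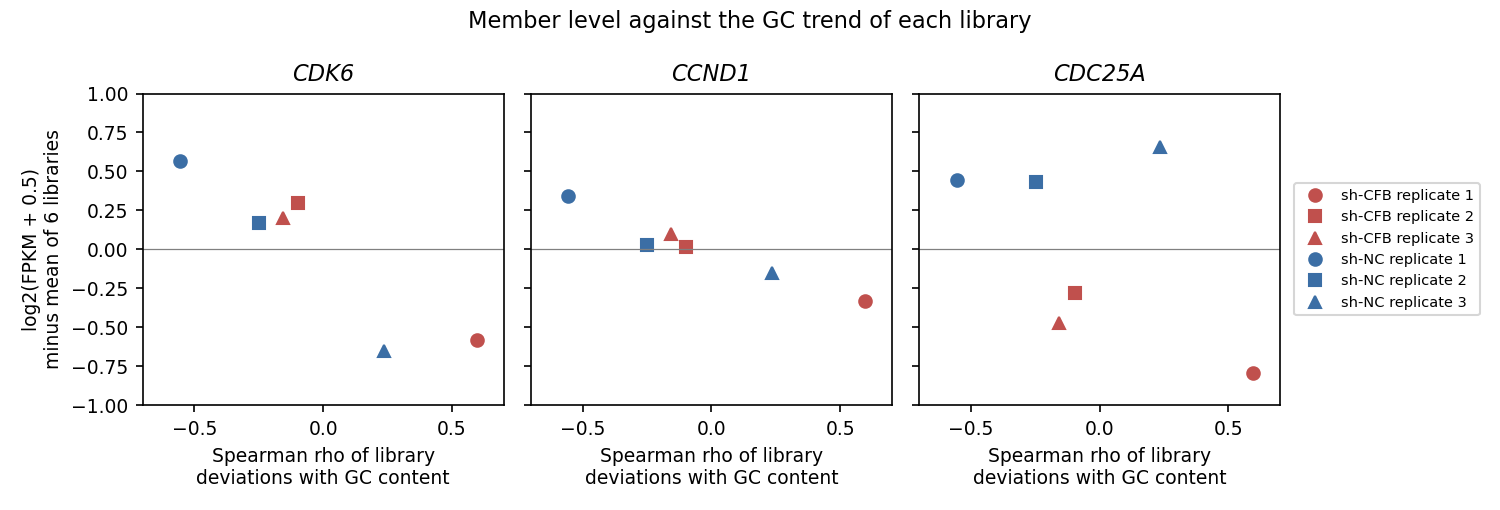
Deviation of log2(FPKM + 0.5) from the mean of the 6 libraries for CDK6, CCND1 and CDC25A (vertical), against each library's Spearman correlation of deviations with GC content (horizontal); 1 point is 1 library. CDK6 and CCND1 are lowest in the 2 libraries with positive correlations, 0.60 and 0.23, whereas CDC25A is lower in each sh-CFB library than in each sh-NC library, including sh-NC replicate 3.

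Of the E-type cyclins, which activate CDK2, CCNE1 carried nearly all the signal. CCNE1 (ENSG00000105173) lies on the forward strand of chromosome 19 from 29811898 to 29824308. The sh-CFB libraries gave 7.85, 9.49 and 8.76 FPKM, against 11.0, 10.5 and 11.9 for the controls. Every sh-CFB library lay below every control: the log2 difference was -0.34 (SE 0.12, 95% interval -0.61 to -0.07, unadjusted p = 0.0190, adjusted p = 0.116) and the gene passed in none of the settings tried (adjusted p from 0.102 to 0.599, replicate block aside). Relative to the median tested gene it stood at -0.20.

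CCNE2 (ENSG00000175305) was close to the limit of detection. The sh-CFB libraries gave 0.104, 0.198 and 0.118 FPKM (12, 29 and 20 reads), the controls 0.559, 0.170 and 0.18 (97, 30 and 26 reads). sh-NC replicate 1 stood apart, while the other controls lay within the range of sh-CFB, and the two-sided exact permutation p was 0.3. Pooled, 61 reads in sh-CFB against 153 in sh-NC gave a ratio of rates of 0.457 (exact 95% counting interval 0.334 to 0.619); without sh-NC replicate 1 the ratio was 0.811 (0.555 to 1.19). These intervals cover counting error only. CCNE1 made up 95.2% of the summed E-type cyclin FPKM in sh-NC replicate 1 and 98.0% to 98.7% in the other 5 libraries.

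CDK2 (ENSG00000123374), the kinase that the E-type cyclins activate, fell. The gene lies on the forward strand of chromosome 12 from 55966769 to 55972784. Silenced libraries had 4.14, 5.31 and 5.27 FPKM, controls 9.48, 8.40 and 8.08. The groups were clearly apart, with means of 4.91 ± 0.665 and 8.65 ± 0.734 FPKM (SD, n = 3 each), 43.3% lower in sh-CFB. On the log2 scale it fell by 0.76 (SE 0.14, adjusted p = 0.0217 with limma), or by 0.52 after the GC and length correction (adjusted p = 0.0167). The call held in 10 of 11 other settings without a replicate block, the exception being no filter, where 0.898% of all genes were called lower (adjusted p = 0.0568; range 0.0159 to 0.0568). It was lost without sh-CFB replicate 2 (adjusted p = 0.0698), sh-CFB replicate 3 (0.0508), sh-NC replicate 1 (0.0751) or sh-NC replicate 2 (0.118), with log2 fold changes of -0.66 to -0.82 over all 6 such fits. In the annotation PMEL spans CDK2 on the opposite strand, at a mean of 149 reads per library, and the strand setting of the counting is not given in the sources used here.

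CDC25A (ENSG00000164045), the phosphatase that activates CDK2 in late G1 and whose promoter above carries the E2F motif, showed the largest change among the members tested. The gene lies on the reverse strand of chromosome 3 from 48157146 to 48188402. The sh-CFB libraries gave 2.48, 3.75 and 3.21 FPKM (270, 519 and 512 reads), the controls 6.53, 6.47 and 7.65 (1067, 1074 and 1044 reads). No control came near the sh-CFB values, and the mean was 54.2% lower. The log2 fold change was -1.03 (SE 0.17, 95% interval -1.41 to -0.64, adjusted p = 0.0156 with limma), with 0.618% of tested genes below it. It passed in each of the 11 other settings without a replicate block (adjusted p from 0.0133 to 0.0482, log2 fold change -0.79 after the GC and length correction). Leaving out sh-CFB replicate 2 gave -1.15 (adjusted p = 0.0570), and leaving out sh-NC replicate 2 gave -1.07 (adjusted p = 0.0879); in those fits 0.249% and 0.112% of all tested genes were called lower, so few genes passed at all.

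SKP2 (ENSG00000145604), which directs the ubiquitin ligase that degrades p27, lies on the forward strand of chromosome 5 from 36151989 to 36184319. In the controls it stood at 1.26, 1.21 and 1.25 FPKM, in the silenced libraries at 0.555, 0.810 and 0.641. The controls lay within a narrow band above all sh-CFB libraries, and the ratio of means was 0.539. After the GC and length correction the groups overlapped, at 0.968, 0.743 and 0.574 FPKM after silencing, against 0.793, 1.04 and 1.63 for the controls (log2 difference -0.37, adjusted p = 0.280). At this low FPKM the added 0.5 shrinks the fold change to -0.58 (SE 0.16, adjusted p = 0.0683); with voom on recovered reads, which does not add 0.5 FPKM, it was -0.90 (adjusted p = 0.0343), and over 10 settings the adjusted p ran from 0.0343 to 0.280. With voom 4 members fell, where 4.28% of all tested genes were called lower. The authors' values imply a gene length of 17377 bases, 4.53 times the 3837 exonic bases of GENCODE 29, so the deposited FPKM understates its level relative to the other members. Computed from the same reads with the GENCODE length, SKP2 stood at 3.03 ± 0.588 FPKM in sh-CFB and 5.62 ± 0.127 in sh-NC (SD, n = 3 each), an upper figure that assumes all reads fell in annotated exons. For the other members the implied length was within 10% of the annotated one. The GC and length correction used the implied lengths, so its result for SKP2 rests on 17377 bases. How that result would change at the annotated length was not tested.

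**Figure D3:**
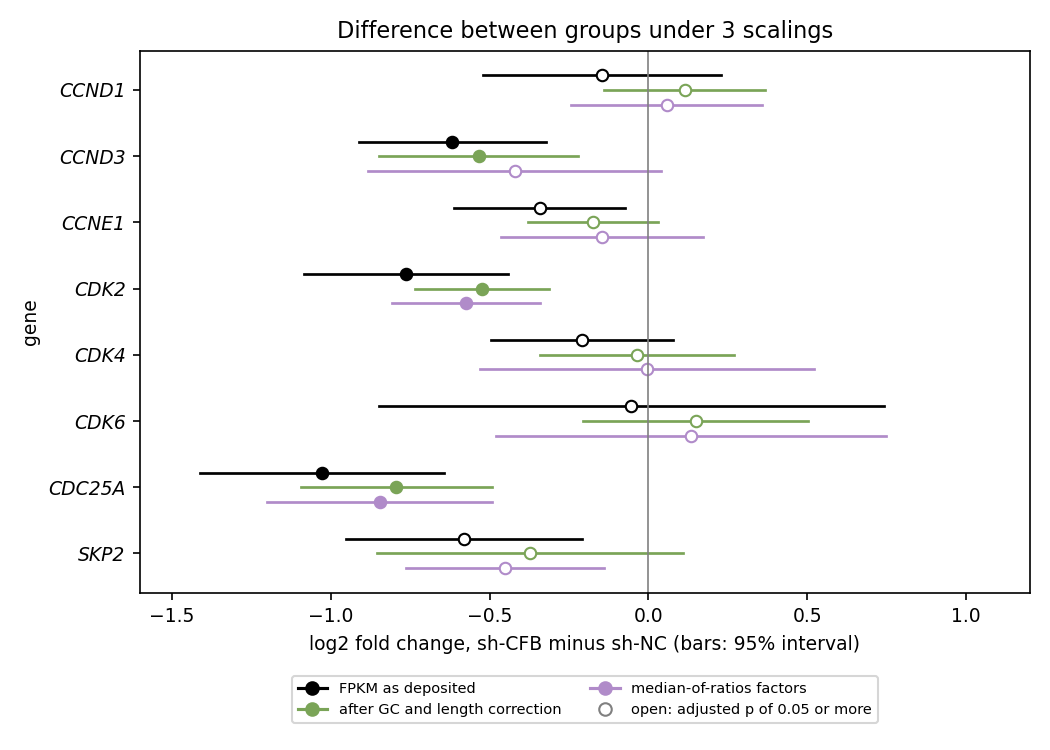
Log2 fold change with 95% interval for the 8 tested members, from FPKM as deposited (black), corrected for GC and length (green) or scaled by median-of-ratios factors (purple); filled points have an adjusted p under 0.05. CDC25A and CDK2 are filled in all 3, CCND3 in the first 2, and the intervals of CCND1, CDK4 and CDK6 span 0 in all 3.

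Library scaling moves all of these values together. With median-of-ratios factors the median tested gene rose by 0.16, from -0.15 to 0.02, and the members stood at -0.85 for CDC25A (adjusted p = 0.0468), -0.57 for CDK2 (0.0435), -0.45 for SKP2 (0.117), -0.42 for CCND3 (0.266) and -0.15 for CCNE1 (0.578). With those factors 1.11% of all tested genes were called lower, and after the GC and length correction 6.01% lower and 4.57% higher. Relative to the median tested gene of the deposited scale, the values were -0.88 for CDC25A, -0.62 for CDK2, -0.47 for CCND3 and -0.43 for SKP2.

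Ratios between members of a pair do not depend on library scaling, but they were not corrected for the GC trend of each library. The GC content of CDK4 was 53.6% and that of CDK6 39.5%. Their ratio was highest in sh-CFB replicate 1 and sh-NC replicate 3, the libraries with positive GC correlations (0.60 and 0.23). The part of the GC trend in the ratios was not tested. The CCND1 to CCND3 ratio of FPKM was 5.80, 7.68 and 8.57 after silencing, against 7.09, 5.03 and 3.79 for the controls. The groups overlapped through sh-CFB replicate 1 and sh-NC replicate 1, with a log2 difference of 0.50 and a two-sided exact permutation p of 0.2, or 0.6 adjusted over the 3 ratios compared. The CDK4 to CDK6 ratio was 18.4, 8.71 and 7.88 after silencing, against 7.27, 10.9 and 22.0 for the controls, a log2 difference of -0.15 (exact permutation p = 0.8, adjusted 0.8). For CCNE1 to CCNE2 the log2 difference was 0.58 (exact permutation p = 0.5, adjusted 0.75), and it was -0.05 when 0.5 FPKM was added to both genes. With 3 libraries against 3 the smallest possible p is 0.1.

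Over the 6 libraries the log2 levels of CDC25A, SKP2, CCNE1 and CDK2 went together: Pearson's r with CDC25A was 0.988 for SKP2, 0.981 for CCNE1, 0.958 for CDK2 and 0.914 for CCND3. CCND1 went with CDK6 (0.903) and less with CDC25A (0.407), and CDK4 ran against CDK6 (-0.579). These are descriptions over 6 libraries that share the group difference and the GC trend. The tested genes most like CDC25A were PARK7 (0.996) and HHEX (0.995), those most like CDK2 OAS3 and PSMA5 (0.999 each), and those most like CCND3 COASY (0.998) and CCNF (0.997), the last of these a cyclin-type F-box protein. Nearest to SKP2 were ZIC1 (0.998) and ISG20L2 (0.995), to CCNE1 IFT22 (0.995) and POLA2 (0.994), a subunit of DNA polymerase alpha, to CCND1 KIF3B and ATMIN (0.999 each) and to CDK6 PIGN (0.999) and TBC1D5 (0.998). CDK4 was most like CAMK2N2 (0.984) and OXLD1 (0.983), and CCNE2 most like XAGE1A (0.980) and TMEM126A (0.979). How many genes reached 0.95 differed between members, from 19 of 11832 for CCNE2, 21 of 11831 for CDK4 and 174 for CCNE1 to 497 for CDC25A, 903 for CDK2 and 1094 for CCND1.

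The genes around the members were followed in 8 lists. Over all tested genes 5.71% were called lower and 1.74% higher, the shares to set beside each count. E2F transcription factors and their partners fell in part: in the RB and E2F list 4 of 13 tested genes fell, 0 rose and 9 did not pass (0 higher also at an unadjusted p under 0.05), with a median of -0.57 beside -0.15 for all tested genes. E2F1 gave 18.8, 16.1 and 15.2 FPKM after silencing, against 30.6, 32.3 and 37.7 for the controls (log2 fold change -0.98, adjusted p = 0.0106), and E2F2 changed by -0.97 (adjusted p = 0.0158); both activate transcription. With median-of-ratios factors E2F1 did not pass (-0.78, adjusted p = 0.103), and 2 of the list fell. The list's median was -0.35 without sh-NC replicate 1, -0.27 after the GC and length correction, where 4 fell and 1 rose, and -0.16 without both replicate 1 libraries. RB1 itself did not pass (-0.22, adjusted p = 0.646; named after its value was seen).

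Genes that license and fire replication origins, many of them known E2F targets, had the lowest median of the 8 lists. In that list 11 of 15 tested genes fell, 0 rose (0 also at an unadjusted p under 0.05) and 4 did not pass, with a median of -0.91. MCM3 averaged 11.4 ± 1.81 FPKM against 34.2 ± 3.60 in the controls (SD, n = 3 each; log2 fold change -1.55, adjusted p = 0.00669), and MCM4 changed by -1.41 (adjusted p = 0.00727); both are subunits of the replicative helicase. CDT1, which loads that helicase, stood at 0.32 (adjusted p = 0.394; named after its value was seen), with 179, 126 and 112 FPKM after silencing, against 85.6, 114 and 134 for the controls, so its groups overlapped. With median-of-ratios factors 7 fell, and without sh-NC replicate 2 the number was 3; in that same fit no gene of the RB and E2F, CDK inhibitor, later cyclin, adaptor or inputs lists passed.

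CDK inhibitors, which oppose the members, had 2 of 7 tested genes higher, 0 lower and 5 not past the test, with a median of 0.01. At an unadjusted p under 0.05, 3 were higher and 1 lower, beside 7.28% higher and 18.6% lower of all tested genes. CDKN1C, which encodes the inhibitor p57, gave 6.95, 6.30 and 6.50 FPKM after silencing, against 2.51, 3.22 and 4.14 for the controls, and rose by 0.92 (adjusted p = 0.0251). CDKN2A, of which p16, a product, binds CDK4 and CDK6, rose by 0.59 (adjusted p = 0.0426 with limma). It averaged 48.4 ± 5.70 FPKM against 32.0 ± 4.70 in the controls (SD, n = 3 each). This value is for the whole gene and does not tell its transcripts apart, so a rise of the p16 transcript was not tested. With median-of-ratios factors neither CDKN1C nor CDKN2A passed (adjusted p = 0.0569 and 0.117 with limma). With no filter 0 genes of the list were called higher. Without sh-NC replicate 3 the number was 2, and it was 0 in every other fit with 1 library left out. CDKN1B, which encodes the SKP2 substrate p27, stood at 0.01 (adjusted p = 0.991; named after its value was seen).

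Cyclins and switches of later phases fell in part. In the list of later cyclins, CDK1 and their switches 4 of 10 tested genes fell, 0 rose (0 also at an unadjusted p under 0.05) and 6 did not pass, with a median of -0.56. CCNB1, the mitotic cyclin, averaged 45.7 ± 5.62 FPKM against 89.6 ± 8.92 in the controls (SD, n = 3 each; log2 fold change -0.97, adjusted p = 0.0111), and CCNB2 changed by -0.63. With median-of-ratios factors none of the 10 passed. Of the relatives of CDC25A, CDC25C, named after its value was seen, fell by 0.58 (adjusted p = 0.0374), while CDC25B, also so named, stood at 0.07 (adjusted p = 0.736) and 38.5 ± 2.03 FPKM in sh-CFB against 36.8 ± 3.95 in the controls (SD, n = 3 each). Differences among the 3 phosphatases were not tested.

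Of the CDK-activating kinase and CDK adaptors 1 of 6 tested genes fell, 0 rose and 5 did not pass, with a median of -0.21. At an unadjusted p under 0.05, 1 of the 6 was lower (16.7%) and 0 higher, beside 18.6% lower of all tested genes. The one that fell was CKS1B, the adaptor that SKP2 needs to recognise p27, with 29.1, 32.1 and 28.9 FPKM after silencing, against 47.5, 52.0 and 57.4 for the controls (log2 fold change -0.79, adjusted p = 0.0115, and 0.126 with median-of-ratios factors). Among the inputs to cyclin D and CDC25A 1 of 8 tested genes rose, 0 fell and 7 did not pass. At an unadjusted p under 0.05, 3 were lower and 2 higher. The gene that rose was the immediate-early factor FOS, by 1.77 (adjusted p = 0.0160 with limma). It gave 10.2, 13.5 and 25.3 FPKM after silencing, against 4.06, 3.93 and 4.33 for the controls. MYC, named after its value was seen, stood at 0.34 (adjusted p = 0.0767).

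**Figure D4:**
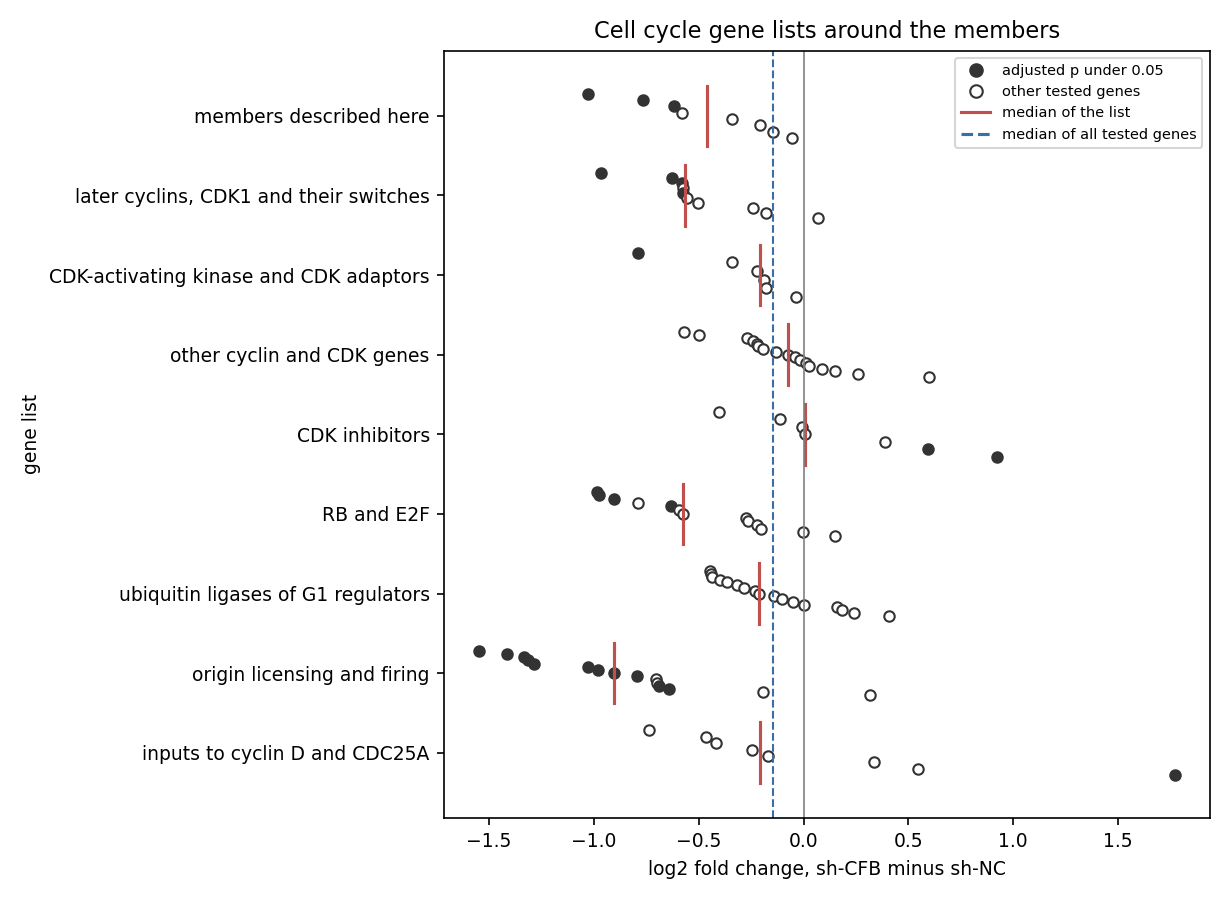
Log2 fold change (horizontal) of the tested genes of each list; filled points have an adjusted p under 0.05, red lines are list medians and the dashed line is the median of all tested genes, -0.15. Filled points are on the lower side for the members, later cyclins, adaptors, RB and E2F and origin lists, and on the higher side for CDK inhibitors and the inputs list.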

How the data were processed

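RNA of 3 sh-CFB and 3 sh-NC libraries of NCI-H1299 was made into stranded poly(A) libraries, per the labels' protocols. The values are FPKM computed by the authors and deposited as 1 table with 1 column per library. STAR 2.7.3a, featureCounts 2.0.1, Trimmomatic 0.39 and FastQC 0.11.9 on GRCh38 are named in the submitters' processing notes. For strand setting, annotation release and FPKM formula, nothing is given in the sources used here. A near-identical copy or an overlapping neighbour could therefore share reads with a gene.

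Coordinates, exon lengths and GC content came from GENCODE 29 on GRCh38, and 22492 of 28495 gene IDs had a symbol. Whole reads and the totals behind FPKM were recovered from the steps between low values (99.9% of genes whole within 0.02 reads). Groups were compared on log2(FPKM + 0.5) by limma with its mean-variance trend (version 3.58.1, R 4.3.3); Python 3.11.15 with scipy 1.17.1 did the rest. The GC and length correction removed a spline of GC content and of gene length (5 degrees of freedom each) from every library's deviation from the gene mean. Gene length there was the one recovered from the deposited FPKM, not the GENCODE exon length. A GC value was available for 99.4% of tested genes. The fit was tested on simulated reads with known fold changes, the same dispersion for every gene and no GC trend. That test therefore does not show how the fit behaves with the GC trend of these libraries. Other settings changed the pseudocount, filter, scaling, correction, replicate block and libraries.

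The members, the 8 lists and the tests were chosen with earlier results of these data known. Genes named from a list were up to 2 per direction with the largest change among those past the test or, in a list with none, the one with the lowest adjusted p, besides those marked as named after their values were seen. For each member the 2 tested genes with the highest Pearson r were named.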

Additional observations from a re-analysis of the deposited data

How the results depend on the processing

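With limma 0 members were called higher in any setting run. With limma, 3 members were lower as reported, 1 with no filter on low values, and 0 with a replicate block, alone or with the GC and length correction, where 4 and 3 had an unadjusted p under 0.05; leaving out 1 library gave 0 to 2. Over all genes the 929 calls became 324 with no filter, 206 with median-of-ratios factors, 313 with voom and those factors, 0 and 0 with a replicate block without and with the correction (1770 and 2473 at an unadjusted p under 0.05), and 20 to 540 without 1 library, fewest without sh-NC replicate 2. In the 8 lists together 20 genes were lower, and 9 with median-of-ratios factors, 10 with voom and those factors, 0 in both fits with a replicate block and 3 to 17 without 1 library; 3 were higher, and 0 with no filter, 1 with median-of-ratios factors, 7 after the GC and length correction, 0 in both fits with a replicate block and 0 to 3 without 1 library.

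CCND1 changed sign with median-of-ratios factors (0.058), voom and those factors (0.059), the GC and length correction (0.11, also with the replicate block) and without both replicate 1 libraries (0.12). CDK4 did so with voom and median-of-ratios factors (0.0036). CDK6 did so with median-of-ratios factors (0.13), quantile normalization (0.11), the GC and length correction (0.15, also with the replicate block), voom with median-of-ratios factors (0.16) and without both replicate 1 libraries (0.49), and ran from -0.39 to 0.22 without 1 library. The CCNE1 to CCNE2 ratio turned to -0.046 with 0.5 FPKM added (0.01 to 0.89 without 1 library), and the CDK4 to CDK6 ratio ran from -0.54 to 0.28 without 1 library. The causes were not tested. CDC25A, CDK2, CCND3, CCNE1 and SKP2 kept their direction in every setting that tested them.

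Deviations from the group means correlated at -0.54, 0.07 and -0.45 between same-numbered libraries 1, 2 and 3. No sh-CFB library went best with its own number. Of these, replicate 1 went best with sh-NC replicate 3 (0.57), and replicates 2 and 3 with sh-NC replicate 1 (0.35 and 0.43). Seen from the controls, only sh-NC replicate 2 went best with its own number (0.07). Whether same-numbered libraries shared a culture or batch is not labelled. The correlations cannot decide it, because the deviations also hold the GC trend of each library. The count models planned for recovered reads were not run, since the deposited unit is FPKM; voom on recovered reads, and overlap on corrected values, were added after the data were seen. Depth limits CCNE2 and CCND2, which lay under the filter.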

Other observations

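A list of 19 other cyclin and CDK genes had 17 tested, and 0 of them passed with limma. At an unadjusted p under 0.05, 2 were lower and 1 higher, beside 18.6% lower and 7.28% higher of all tested genes, and the median of -0.08 beside -0.15 for all tested genes turned to 0.10 under either median-of-ratios scaling or the GC and length correction. The lowest adjusted p belonged to CDK18, a kinase of the PCTAIRE group, which stood at 1.15 ± 0.124 FPKM in sh-CFB and 0.593 ± 0.108 in sh-NC (SD, n = 3 each; log2 difference 0.60, adjusted p = 0.0674), and passed after the GC and length correction (0.58, adjusted p = 0.0385) and with voom on recovered reads (0.97, adjusted p = 0.0457), the adjusted p in its other settings with all 6 libraries and no replicate block being above 0.05.

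Of 18 listed subunits and regulators of the ubiquitin ligases that degrade G1 proteins 17 were tested, and 0 passed with limma, with a median of -0.21. At an unadjusted p under 0.05, 2 were lower and 0 higher; this turned to 0 lower and 2 higher under either median-of-ratios scaling or the GC and length correction, and to 1 lower and 4 higher with quantile normalization. With the correction and with quantile normalization 1 gene passed as higher. DDB1, an adaptor of CUL4 ligases, had the lowest adjusted p (-0.36, adjusted p = 0.0555), passed when the filter was raised to a mean FPKM of 1 (adjusted p = 0.0469) and stood at -0.16 with median-of-ratios factors (adjusted p = 0.549). SKP1 and CUL1, the partners of SKP2 in its ligase, stood at -0.23 (adjusted p = 0.323) and -0.45 (adjusted p = 0.249), both named after their values were seen.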
